A study of Mus musculus with 18 samples.

Results

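The RB family and E2F genes were followed here in 18 RNA-seq libraries of mouse small cell lung cancer cells in which p53 was off or had been switched back on. The 10 genes were taken by symbol from a table of 25239 genes: the pocket proteins Rb1, Rbl1 (p107) and Rbl2 (p130), the activator factors E2f1, E2f2 and E2f3, the repressors E2f4 and E2f5 that act with pocket proteins, and the atypical repressors E2f7 and E2f8. All 10 had a row and all 10 passed the filter on low values.

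The cells came from mice that were flox/flox at both Rb1 and Rbl2, XTR/XTR at Trp53 and carried Rosa26 FlpO-ER, whose lung tumors were started with an adenovirus that expresses Cre from the broadly active CMV promoter. Cre recombined Rb1 and Rbl2 and turned a gene trap in Trp53 to its blocking orientation, so every group, controls included, carries recombined Rb1 and Rbl2 alleles. Control cells received vehicle (ethanol) and kept the trapped Trp53 allele. Restored cells received 500 nM 4-hydroxytamoxifen (4-OHT) for 72 h, which lets the FlpO-ER recombinase remove the trap. The 3 tumor-derived lines 4711-1, 4711-18 and 4716-11 are of Type D, the class that dies by lysis after p53 returns. Each line carried Cas9 with a control sgRNA (sgBgal) or with 1 of 2 sgRNAs against Ppia, the cyclophilin A gene (sgPpia#3.2, cutting in exon 3, and sgPpia#4.1, cutting in exon 4). Whether the targeted cells were pools or clones is not given in the sources used here. The 6 conditions therefore have 3 libraries each, 1 per line, and the line is the replicate, so the spread is that between lines. No group without 4-OHT but with p53, or with 4-OHT and no FlpO-ER, is part of these 18 libraries, so p53 and 4-OHT cannot be told apart.

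Values are TPM, a normalized transcript abundance that is scaled to transcript length and to the library total, so that levels of different genes can be set side by side. The spacing of the lowest values put the deepest library at 1.78 times the depth of the shallowest, with a median of 1.30 times, and TPM holds no absolute depth. Trp53 lay between 5.45 and 8.41 TPM in the 9 Control libraries and between 181 and 236 TPM in the 9 Restored ones, in accord with all 18 labels. Ppia lay between 2575 and 2849 TPM with sgBgal, between 658 and 1207 with sgPpia#3.2 and between 1684 and 1952 with sgPpia#4.1 in Control cells, and between 1551 and 2730, 769 and 1233, and 1191 and 1765 TPM in Restored cells. Of the markers of neuroendocrine lung cancer, Calca was at 0 to 0.018 TPM and Chga at 0 to 0.16 TPM in all libraries, while Syp was at 3.03 to 7.12 TPM. Fibroblast markers summed to at most 1.12 TPM and endothelial markers to at most 1.44 TPM. The 4 immune markers summed to 2.25 to 7.19 TPM in Control and 21.7 to 39.9 TPM in Restored cells, nearly all of it Cd68, a lysosomal gene, with the defining leukocyte marker Ptprc at no more than 0.081 TPM. 1 library stood apart: 4711-18 with sgPpia#3.2 in the Control state had 369 TPM of Cdkn1a, against 99.4 to 171 TPM in the other Control libraries, and 23.0 TPM of the proliferation marker Mki67, against 62.1 to 99.6 TPM.

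The retinoblastoma protein and its relatives p107 and p130 hold E2F transcription factors in check. E2F1, E2F2 and E2F3 switch on genes for DNA synthesis once cyclin-dependent kinases have phosphorylated RB. E2F4 and E2F5 instead carry p107 and p130 to promoters, where with the MuvB proteins they form the DREAM complex that silences cell cycle genes in resting cells. E2F7 and E2F8 repress without a pocket protein. p53 feeds into this circuit through p21 (Cdkn1a), which inhibits the kinases. Loss of RB is a hallmark of small cell lung cancer.

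E2F genes are themselves known targets of E2F factors, so the promoter windows were searched for the letters of E2F sites. RefSeq promoters on GRCm38.p6 were matched for 7 members, all but Rb1, E2f4 and E2f5, in 9 windows of 300 bases that run from 250 bases before to 50 bases after the start of the gene. A window held an E2F word if it contained TTTCCCGC, TTTCGCGC, TTTGCCGC or TTTGGCGC on either strand. 4 of the 7 members with a window held one, against 2.6% of the 27025 genes with a promoter in the table. The matches are shown as 30 bases on the strand of the gene, 5′ to 3′, with the word in capitals, since these windows hold letters that E2F factors recognize.
Rbl1, minus strand, chr2:157204534-157204563, word starting 18 bases before the gene start: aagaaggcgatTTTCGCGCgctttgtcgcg
E2f2, plus strand, chr4:136172294-136172323, word starting at base 40 of the gene: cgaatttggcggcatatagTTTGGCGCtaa
E2f3, minus strand, chr13:29986056-29986085, word on the opposite strand, 11 bases before the start: ttgaaaagccgGCGGGAAAtctgagtttcg
E2f7, plus strand, chr10:110745230-110745259, word on the opposite strand, 198 bases before the start: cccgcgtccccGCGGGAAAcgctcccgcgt
The CHR word TTTGAA, to which MuvB binds, was in windows of 4 of the 7 members, against 20.2% of genes with a window. The 4 members were E2f2, E2f3, E2f8 and Rbl2. The word of E2f8 is shown because the changes of E2f8 within lines had the widest range of the members. A link between the word and the changes was not tested.
E2f8, minus strand, chr7:48881599-48881628, CHR word on the opposite strand, 20 bases before the start: gagcgggttaatTTCAAAtcgggggctgga
The CHR and E2F words of the same E2f3 window did not overlap. Of the pathway genes described further on, 11 of 24 targets of the start of S phase with a window held an E2F word and 3 of 24 the CHR word, and 1 of 15 and 11 of 15 mitotic genes did. These are matches of letters, and binding was not measured.

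The levels of the members spanned a wide range. E2f4 was the most abundant, with a median of 83.7 TPM over the 18 libraries, followed by E2f1 at 51.9 TPM. Then came Rbl1 at 21.8, E2f5 at 20.9, E2f8 at 18.4, E2f3 at 15.8, Rb1 at 12.01, E2f7 at 8.33, E2f2 at 4.80 and Rbl2 at 4.06 TPM. E2f4 was above E2f1 in 15 of 18 libraries, and E2f1 was above Rbl1 in all 18. From Rbl1 down no neighbours in this order kept their places in all libraries: Rbl1 was above E2f5 in 8 libraries, E2f5 above E2f8 in 9, E2f8 above E2f3 in 14, E2f3 above Rb1 in 12, Rb1 above E2f7 in 10, E2f7 above E2f2 in 13 and E2f2 above Rbl2 in 10. Rb1 varied most, with its highest library 9.15 times its lowest, followed by E2f8 at 6.17 times and E2f2 at 5.29 times. Rbl1 and E2f4 varied least, at 1.65 and 1.70 times. The plot of TPM by library shows every value.

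**Figure D1:**
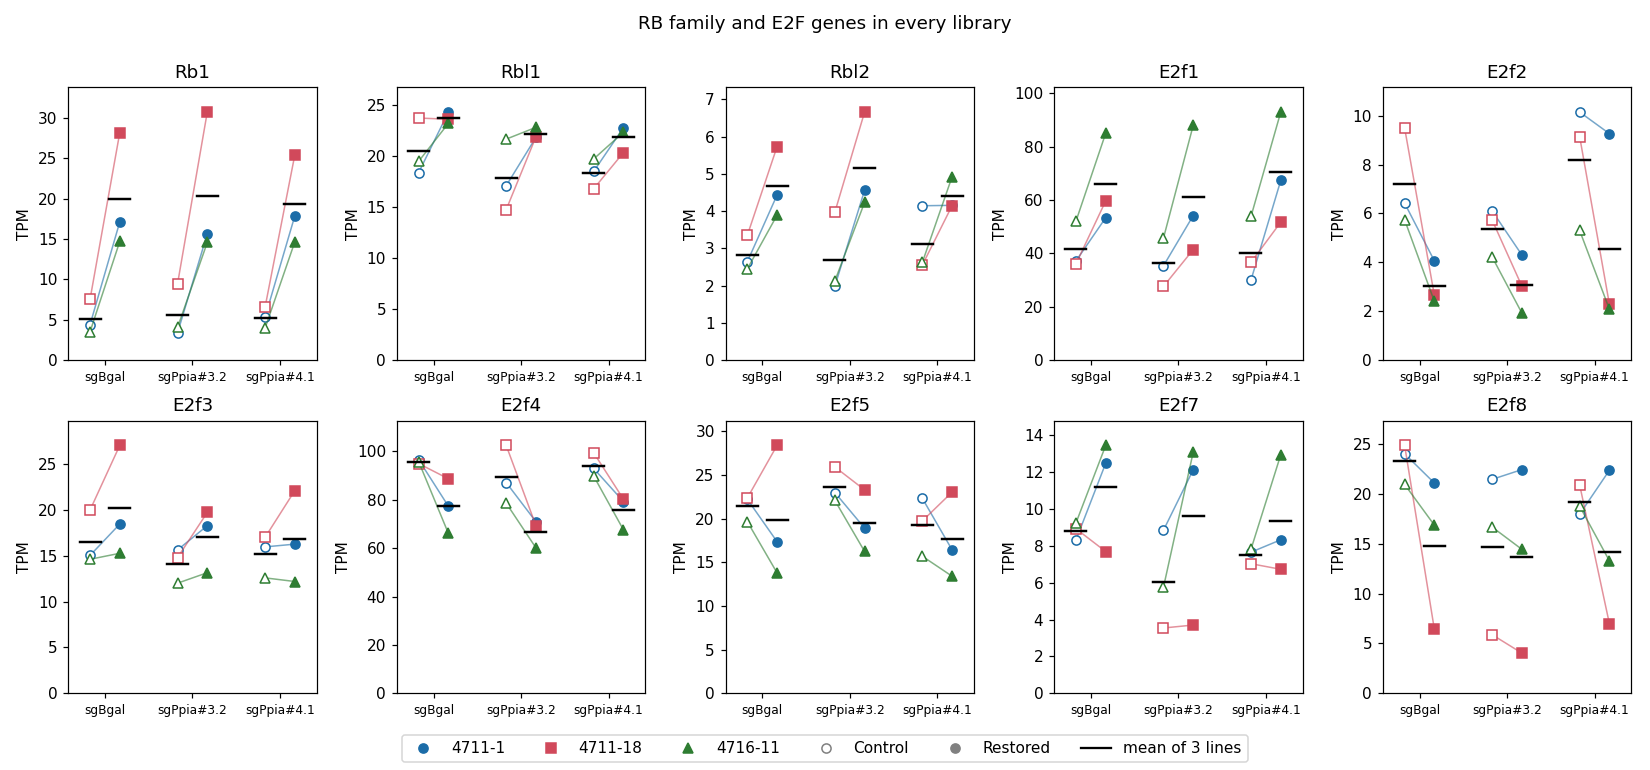
TPM of the 10 genes in all 18 libraries, with open symbols for Control, filled symbols for Restored, colors and shapes for the 3 cell lines, a line joining the 2 states of a line and sgRNA, and black bars for the mean of 3 lines. Rb1 is at 3.36 to 9.44 TPM in Control and 14.6 to 30.8 TPM in Restored cells, and E2f8 of line 4711-18 is at 4.04 to 6.99 TPM in Restored cells.

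The first question was which of these genes change when p53 returns. Rb1 rose in every line and with every sgRNA, by 3.26-fold to 4.66-fold in TPM over the 9 pairs of Restored and Control libraries. No other member was called in the fit without a block. E2f1 was higher and E2f2 and E2f4 were lower in all 9 pairs, and these shifts did not pass there. The 9 pairs are the 3 lines with 3 sgRNAs each, so they are not 9 independent observations. How many of all genes moved in the same direction in all 9 pairs was not counted. With the line as a replicate block E2f2 was called lower with sgBgal, and the adjusted p, but not the size limit, was passed by E2f1 and E2f4 with each sgRNA and by E2f2 with sgPpia#4.1. Rbl2 was higher in 9 of 9 pairs and passed the adjusted p, but not the size limit, with sgPpia#3.2, and under the block with sgBgal too. Rbl1, E2f3, E2f5, E2f7 and E2f8 did not pass with any sgRNA in the fit without a block.

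These statements rest on a limma fit of log2(TPM + 1) over 12828 genes, in which a called gene had to show a change of at least 1 in log2 fold change, up or down, and a Benjamini-Hochberg adjusted p under 0.05. On this log2(TPM + 1) scale the change of a low gene is understated. Of all genes tested, 5.46% were called higher and 2.17% lower on restoration with sgBgal, 4.44% and 1.31% with sgPpia#3.2, and 4.3% and 1.79% with sgPpia#4.1. Of the members, 1 of 10 was called higher and 0 of 10 lower in each of the 3 comparisons, and 3, 4 and 3 members had an unadjusted p under 0.05, where 3658, 3052 and 3136 of the 12828 genes did. The median of the members was 0.23, 0.28 and 0.18 on the log2 scale, against 0.19, 0.17 and 0.15 for all genes. With the line as a replicate block, 7.7%, 6.4% and 6.26% of all genes were called higher and 3.32%, 2.21% and 2.92% lower, and the members gave 1 higher in each comparison and 1, 0 and 0 lower. Median-of-ratios rescaling divides each library by the median ratio of its genes to their average over libraries, which by construction sets the median of all genes near 0, here at -0.0025, -0.0068 and -0.0027. Under it the split of calls with sgBgal went from 701 higher and 279 lower to 479 higher and 391 lower, from 570 and 168 to 413 and 243 with sgPpia#3.2, and from 552 and 229 to 414 and 296 with sgPpia#4.1. A member near 0.19 was close to the median of all genes. In bulk RNA, fewer cells of a kind and less RNA per cell cannot be told apart.

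Rb1 encodes the pocket protein that binds the activator E2Fs. With sgBgal it went from 4.37 to 17.1 TPM in 4711-1, from 7.52 to 28.2 TPM in 4711-18 and from 3.49 to 14.7 TPM in 4716-11. With sgPpia#3.2 it went from 3.36 to 15.7, from 9.44 to 30.8 and from 4.03 to 14.6 TPM in the same order of lines, and with sgPpia#4.1 from 5.30 to 17.9, from 6.54 to 25.4 and from 3.94 to 14.6 TPM. The lowest Restored library was above the highest Control library, and 4711-18 was the highest line in each of the 6 conditions. The log2 fold change was 1.78 ± 0.38 (SE), 1.72 ± 0.38 and 1.69 ± 0.38 with sgBgal, sgPpia#3.2 and sgPpia#4.1 (limma, n = 3 lines a group, adjusted p = 0.0068, 0.0100 and 0.0109). Within lines the rise was nearly the same everywhere, from 1.58 to 1.93 over the 9 pairs, and with the replicate block the SE fell to 0.15 and the adjusted p to 1.88e-06, 2.72e-06 and 3.72e-06. Without 4711-1 the adjusted p of Rb1 rose to 0.11, 0.17 and 0.11, and without 4716-11 to 0.092, 0.13 and 0.14, whereas the blocked fits without either line stayed at 0.0043 or less. Which exons Cre removes is not given in the sources used here. A gene-level TPM can count exons outside the deletion, so the level of Rb1 mRNA says nothing about the deletion or about RB protein. The study reports from immunoblots that its tumor-derived cell lines lacked RB protein. The rise given here is one of mRNA alone.

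Rbl2, whose p130 protein leads the DREAM complex, is the other floxed gene and was the lowest member. In Control cells it lay between 1.98 and 4.14 TPM and in Restored cells between 3.89 and 6.66 TPM. It was higher in Restored cells in 9 of 9 pairs, although 4711-1 with sgPpia#4.1 was flat, at 4.14 and 4.15 TPM. The 2 states did not overlap within any of the 3 sgRNAs, where 22.1%, 19.1% and 17.8% of all genes were higher without overlap. With sgPpia#4.1 the gap was very narrow, from 4.142 TPM in Control cells of 4711-1 to 4.146 TPM in Restored cells of 4711-18. Its log2 fold changes for sgBgal, sgPpia#3.2 and sgPpia#4.1 were 0.57, 0.76 and 0.42 (SE 0.23 each, limma, adjusted p = 0.11, 0.047 and 0.28), under the size limit in each. The pass with sgPpia#3.2 was lost after median-of-ratios rescaling (limma, adjusted p = 0.058) and with no filter on low values (0.061). It was also lost with a moderated trend (0.061) and with the compared groups alone (0.20). It was kept with the other pseudocount (0.043) and with a filter on mean TPM (0.044). With the replicate block the adjusted p of Rbl2 was 0.028, 0.0086 and 0.11, and it passed with no sgRNA without 4711-1 (0.085, 0.060 and 0.064) or without 4716-11 (0.15, 0.12 and 0.54). As with Rb1, the deleted exons are not known here.

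Rbl1, which encodes p107 and was not targeted, was the steadiest pocket protein gene. It lay between 14.7 and 23.7 TPM in Control cells and between 20.3 and 24.3 TPM in Restored cells. The Restored values were higher in 8 of 9 pairs, the exception being 4711-18 with sgBgal at 23.7 and 23.6 TPM. Its log2 fold change of 0.21, 0.32 and 0.24 (SE 0.15 each) was close to the median of all genes, did not pass (limma, adjusted p = 0.40, 0.21 and 0.36), and with sgBgal turned to -0.0044 after median-of-ratios rescaling. Summed over the 3 genes, pocket protein mRNA was 22.4 to 34.6 TPM in Control and 41.6 to 59.3 TPM in Restored cells, and the larger part of the difference was Rb1.

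Taking the groups as whole ranges, 3 members were higher without overlap in each comparison (Rb1, Rbl2 and E2f1 with sgBgal, and all 3 pocket protein genes with either Ppia sgRNA), where 22.1%, 19.1% and 17.8% of all genes were. E2f4 was lower without overlap with each sgRNA, and E2f2 with sgBgal too, where 9.19%, 7.43% and 8.23% of all genes were. The exact two-sided permutation test of 3 against 3 libraries gave p = 0.1 for each of these, the smallest it allows.

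Among the activators, E2f1, the best known driver of entry into S phase, had higher values in Restored cells. With sgBgal it was at 37.2, 36.1 and 52.1 TPM in Control and 53.4, 59.7 and 85.1 TPM in Restored cells of 4711-1, 4711-18 and 4716-11. With sgPpia#3.2 the values were 35.4, 27.6 and 45.8 against 54.2, 41.4 and 88.1 TPM, and with sgPpia#4.1 they were 29.99, 36.6 and 53.8 against 67.4, 51.7 and 93.0 TPM. Line 4716-11 was highest throughout, and its Control values overlapped the Restored values of the other lines with both Ppia sgRNAs. At 0.64, 0.70 and 0.80 on the log2 scale (SE 0.32 each), the differences did not pass (limma, adjusted p = 0.20, 0.19 and 0.13). Within the lines E2f1 was higher by 0.49 to 1.14 in 9 of 9 pairs, and with the replicate block the adjusted p was 0.0031, 0.0022 and 0.000875, still under the size limit. Without 4716-11 the blocked adjusted p of E2f1 was 0.077, 0.12 and 0.045, so that it no longer passed with sgBgal and sgPpia#3.2. After rescaling, the blocked values of E2f1 were 0.42, 0.50 and 0.63 with adjusted p = 0.048, 0.027 and 0.0083.

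E2f2, a second activator that is far less abundant, had lower values. With sgBgal it was at 6.42, 9.49 and 5.74 TPM in Control and 4.06, 2.64 and 2.40 TPM in Restored cells of 4711-1, 4711-18 and 4716-11. With sgPpia#3.2 the values were 6.10, 5.73 and 4.22 against 4.30, 3.02 and 1.92 TPM, and with sgPpia#4.1 they were 10.1, 9.15 and 5.30 against 9.26, 2.28 and 2.08 TPM. All 9 pairs were lower in the Restored state, but by unequal amounts: 0.12 to 0.55 on the log2 scale in 4711-1, 0.74 to 1.63 in 4711-18 and 0.84 to 1.03 in 4716-11. For E2f2 the fitted log2 fold change was -1.02, -0.67 and -0.93 (SE 0.40 each) and did not pass (limma, adjusted p = 0.10, 0.33 and 0.16). With the replicate block it was called lower with sgBgal (adjusted p = 0.011), and the adjusted p was 0.080 and 0.021 with sgPpia#3.2 and sgPpia#4.1. The blocked call with sgBgal was lost without 4711-18, where the log2 fold change was -0.77 (adjusted p = 0.10), and without 4716-11 (adjusted p = 0.10). With sgPpia#4.1 E2f2 did not pass the blocked fit without 4716-11 either. Without 4711-18 its log2 fold change with sgPpia#4.1 was -0.58.

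E2f3, the third activator, stayed between 12.02 and 19.99 TPM in Control and between 12.2 and 27.1 TPM in Restored cells. It was higher in 8 of 9 pairs, by 0.36 to 0.42 in 4711-18 and by -0.043 to 0.12 in 4716-11. Its log2 fold change was 0.25, 0.24 and 0.11 (SE 0.25 each, limma, adjusted p = 0.55, 0.61 and 0.84), which is about that of all genes. With sgPpia#4.1 the sign of E2f3 turned after median-of-ratios rescaling, to -0.053. Together the 3 activators made up 25.9% to 35.2% of the TPM of the 7 E2F members in Control cells and 37.2% to 50.01% in Restored cells, and the share was higher in 9 of 9 pairs.

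E2f4, the main partner of p107 and p130, was the most abundant member and varied little between lines. With sgBgal it was at 96.6, 94.98 and 95.8 TPM in Control and 77.3, 88.7 and 66.1 TPM in Restored cells of 4711-1, 4711-18 and 4716-11. With sgPpia#3.2 the values were 87.1, 103 and 78.6 against 71.0, 69.3 and 60.1 TPM, and with sgPpia#4.1 they were 93.0, 99.5 and 89.8 against 79.3, 80.3 and 67.6 TPM. The 2 states did not overlap with any sgRNA. Fitted log2 fold changes of E2f4 were -0.31, -0.41 and -0.31 (SE 0.15 each) and did not pass (limma, adjusted p = 0.18, 0.096 and 0.21). With the replicate block the adjusted p was 0.022, 0.0070 and 0.027. That pass was lost with every sgRNA without 4711-1 (0.14, 0.053 and 0.098) and without 4716-11 (0.36, 0.12 and 0.29), and with sgPpia#4.1 without 4711-18 (0.068). After median-of-ratios rescaling E2f4 was lower by more, at -0.53, -0.61 and -0.49, with adjusted p = 0.0095, 0.0052 and 0.018 without a block, short of the size limit.

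As a share of the 7 E2F members, E2f4 went from 42.5% to 55.1% of TPM in Control cells to 29.04% to 42.1% in Restored cells, lower in 9 of 9 pairs. The ratio of E2f1 to E2f4 mRNA, which does not depend on scaling, was 0.27 to 0.60 in Control cells and 0.60 to 1.46 in Restored cells, higher in 9 of 9 pairs. The summed TPM of the 7 E2F genes was about level, at 185 to 218 in Control and 165 to 221 in Restored cells, and higher in 5 of 9 pairs.

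E2f5, the second repressor that works with p107 and p130, did not change in one direction. In Control cells it lay between 15.7 and 25.9 TPM and in Restored cells between 13.4 and 28.4 TPM. It was lower in all 3 pairs of 4711-1, by 0.27 to 0.42, and in all 3 pairs of 4716-11, by 0.21 to 0.48, while 4711-18 gave 0.33, -0.15 and 0.21 with sgBgal, sgPpia#3.2 and sgPpia#4.1. In the fit E2f5 was at a log2 fold change of -0.16, -0.28 and -0.14 (SE 0.25 each, limma, adjusted p = 0.72, 0.54 and 0.80).

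The atypical repressors E2f7 and E2f8 are made in S phase and close the E2F program again. E2f7 lay between 3.55 and 9.25 TPM in Control and between 3.71 and 13.5 TPM in Restored cells. It was higher in the 3 pairs of 4711-1, by 0.11 to 0.53, and in the 3 pairs of 4716-11, by 0.50 to 1.06, and changed by -0.19 to 0.05 in 4711-18. The log2 fold change of 0.28, 0.51 and 0.24 (SE 0.38 each) did not pass (limma, adjusted p = 0.68, 0.46 and 0.77).

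E2f8 had the widest range of changes within lines, from -1.80 to 0.30. In 4711-18 it went from 24.9 to 6.41 TPM with sgBgal and from 20.9 to 6.99 TPM with sgPpia#4.1. With sgPpia#3.2 the same line was already at 5.88 TPM in the Control state and at 4.04 TPM after restoration. In 4716-11 it went from 21.0, 16.7 and 18.8 to 16.9, 14.5 and 13.3 TPM with sgBgal, sgPpia#3.2 and sgPpia#4.1, and in 4711-1 from 24.0, 21.5 and 18.0 to 21.1, 22.5 and 22.4 TPM. The log2 fold change of E2f8 was -0.76, -0.19 and -0.54 (SE 0.57 each, limma, adjusted p = 0.42, 0.89 and 0.62). The difference in response between lines was not tested, since the libraries of a line differ in their sgRNA. The plot of changes within lines sets these beside the other members.

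**Figure D2:**
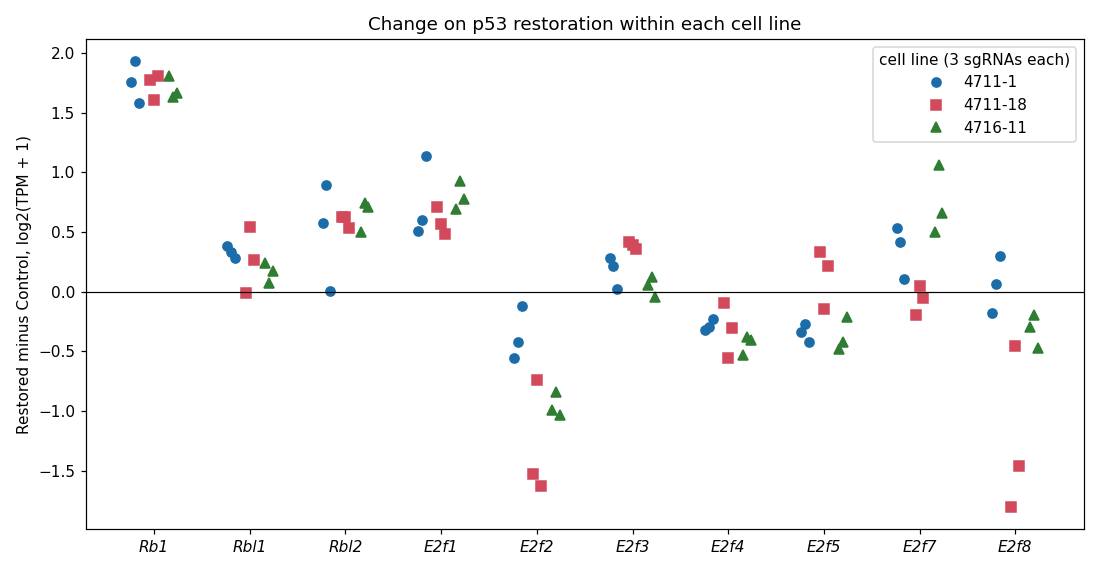
Change of each gene from Control to Restored within a line and sgRNA, on the log2(TPM + 1) scale, with 3 points per line for the 3 sgRNAs. Rb1 sits between 1.58 and 1.93 for all 9 pairs, E2f1 is above 0 and E2f2 and E2f4 are below 0 in all 9, and E2f8 spreads from -1.80 in 4711-18 to 0.30 in 4711-1.

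The next question was what happened to the rest of the pathway, from lists of genes taken by their role. Of the 20 genes of mitosis listed as CHR genes, which are known from other work as DREAM targets, 19 or 20 were called lower with each sgRNA, while most targets of E2F at the start of S phase did not pass the test.

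Tfdp1 and Tfdp2, which pair with E2Fs to bind DNA, and E2f6, a repressor that needs no pocket protein, gave 0 of 3 calls in each comparison. Tfdp1 was far above every E2F member, at 178 to 685 TPM in Control and 313 to 1208 TPM in Restored cells. Line 4716-11 alone held the values from 622 TPM upward in both states. Tfdp1 was higher in Restored cells in 9 of 9 pairs, at log2 fold changes of 0.49, 0.71 and 0.61 (limma, adjusted p = 0.70, 0.60 and 0.66). Its adjusted p with the replicate block was 0.017, 0.0027 and 0.0067, under the size limit.

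Of the 6 MuvB and MYB proteins, Mybl2, which joins MuvB to activate mitotic genes, was called lower with each sgRNA (log2 fold change -1.87, -1.78 and -1.76, limma, adjusted p = 0.027, 0.041 and 0.042). The remaining 5, Lin9, Lin37, Lin52, Lin54 and Rbbp4, were not called in any of the 3 comparisons.

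Of the 8 cyclins and kinases that phosphorylate RB, 0, 1 and 0 were called. The call was cyclin D1 (Ccnd1) with sgPpia#3.2, at a log2 fold change of 1.14 ± 0.25 (limma, adjusted p = 0.010), against 0.76 and 0.91 with sgBgal and sgPpia#4.1. After median-of-ratios rescaling the call was lost (0.94, adjusted p = 0.070) and 0 of 8 were called with any sgRNA. Blocking by line gave 1, 2 and 1 genes called higher, the added gene being the cyclin E1 gene Ccne1 each time. Ccnd1 lay between 298 and 450 TPM in Control and between 449 and 1027 TPM in Restored cells.

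Of the 7 CDK inhibitors, 6 passed the filter, all but Cdkn1c. Cdkn1a, the p53 target that encodes p21, rose from 99.4 to 369 TPM in Control cells to 1565 to 3806 TPM in Restored cells (log2 fold change 4.35, 3.84 and 4.06, limma, adjusted p = 1.82e-05, 6.07e-05 and 4.09e-05). Cdkn2d, which encodes the CDK4 and CDK6 inhibitor p19-INK4d, was called lower with sgBgal and sgPpia#3.2 (-1.14 and -1.12, limma, adjusted p = 0.022 and 0.028) and was at -0.89 with sgPpia#4.1 (adjusted p = 0.075).

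The 30 E2F targets of the start of S phase had a median log2 fold change of -0.16, 0.19 and 0.03 with sgBgal, sgPpia#3.2 and sgPpia#4.1, and 1 of 30 was called lower each time and 0 higher. Blocking by line gave 2, 1 and 2 called lower, Mcm10 being the second with sgBgal and sgPpia#4.1. The gene called without a block was Ccna2, cyclin A2, at -2.96, -2.54 and -3.00 (limma, adjusted p = 0.0020, 0.0070 and 0.0021). Its levels were 44.1 to 150 TPM in Control and 4.31 to 20.1 TPM in Restored cells. After median-of-ratios rescaling the medians were -0.37, -0.0087 and -0.15. Within lines the median of the 30 targets was 0.05 to 0.24 in 4711-1 and 0.24 to 0.40 in 4716-11, but -0.78, -0.0032 and -0.50 in 4711-18, the line in which E2f8 and E2f2 also had their most negative changes with sgBgal and sgPpia#4.1.

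The 20 mitotic CHR genes were called lower in 20, 19 and 20 cases with a median log2 fold change of -2.53, -2.24 and -2.55. The largest changes were those of Plk1 (-3.14 ± 0.69 with sgBgal), a kinase of mitotic entry, Ccnb2 (-3.01 ± 0.72), a mitotic cyclin, Kif11 (-2.88 ± 0.66), the spindle motor, and Bub1b (-2.81 ± 0.45), a spindle checkpoint kinase (limma, adjusted p = 0.0081, 0.0135, 0.0105 and 0.0010). All 20 were lower within each of the 9 pairs, with medians of -1.58 to -1.72 in 4716-11, -2.18 to -2.60 in 4711-1 and -2.53 to -3.66 in 4711-18. Without 4711-1 the calls with sgBgal, sgPpia#3.2 and sgPpia#4.1 dropped to 2, 0 and 2, without 4716-11 to 11, 4 and 8, and without the 4711-18 sgPpia#3.2 libraries the calls with sgPpia#3.2 dropped to 9. With the replicate block 19 or 20 were called whichever line was left out. The plot of the pathway lists shows both target lists beside the members.

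**Figure D3:**
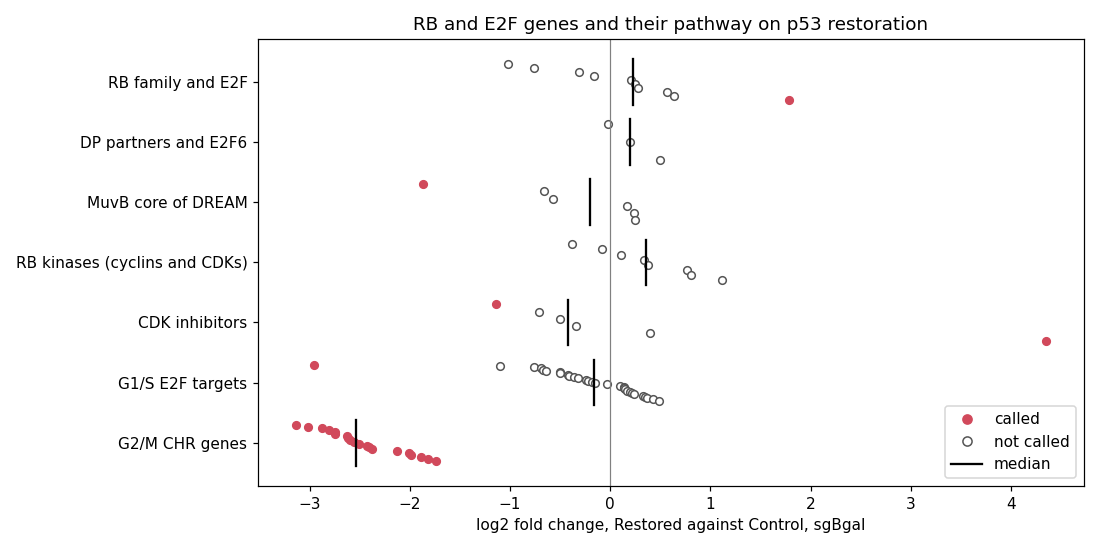
Log2 fold change of Restored against Control cells with sgBgal for the 10 members and 6 lists of pathway genes, each point a gene, filled where called, with black lines at the medians. The 20 mitotic CHR genes lie together around a median of -2.53, the 30 E2F targets of the start of S phase straddle 0 with Ccna2 alone at -2.96, and among the members Rb1 stands at 1.78.

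The last question was whether the sgRNAs against Ppia changed these genes or their response. Ppia mRNA was still present in these cells, as given above, and the study describes cyclophilin A protein in them as lowered but not gone. No member was called between either Ppia sgRNA and sgBgal in Control or in Restored cells, and no member's restoration response was called as different. Of all 12828 genes 0% were called in each of these 6 comparisons by limma, with 311 and 27 genes at an unadjusted p under 0.05 in Control cells for sgPpia#3.2 and sgPpia#4.1, 154 and 68 in Restored cells, and 31 and 18 for the difference in response. With the replicate block 0.0156% (2 genes) and 0.0078% (1 gene) of all genes were called for sgPpia#3.2 in Control and Restored cells and 0% in the other 4, with 0 members in each. No member had an unadjusted p under 0.05 in any of the 6 comparisons, with or without the block.

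Most differences were small. Rb1 differed from sgBgal by 0.05 and 0.06 in Control and by -0.0046 and -0.031 in Restored cells for sgPpia#3.2 and sgPpia#4.1, with 95% intervals that reached from -0.84 to 0.88. E2f4 differed by -0.11, -0.03, -0.20 and -0.02 in the same order, with intervals from -0.52 to 0.29, and E2f1 by -0.21, -0.08, -0.15 and 0.08, with intervals from -0.88 to 0.76. For E2f1 and E2f4 differences of more than 1 on the log2(TPM + 1) scale lie outside the intervals. The largest differences were those of E2f8 and E2f7 with sgPpia#3.2 in Control cells, at -0.79 (95% interval -2.01 to 0.43) and -0.55 (-1.36 to 0.26). These intervals are wide and allow 2-fold differences. In the library of 4711-18 that stood apart, E2f8 was at 5.88 TPM against 24.9 TPM with sgBgal and E2f7 at 3.55 against 8.93 TPM. In the same library Cdkn1a was high and Mki67 low, as given above, and their part in the result was not tested. In 4711-1, E2f8 was at 21.5 against 24.0 TPM, and in 4716-11 at 16.7 against 21.0 TPM. E2f7 was at 8.85 against 8.32 TPM in 4711-1 and at 5.76 against 9.25 TPM in 4716-11.

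**Figure D4:**
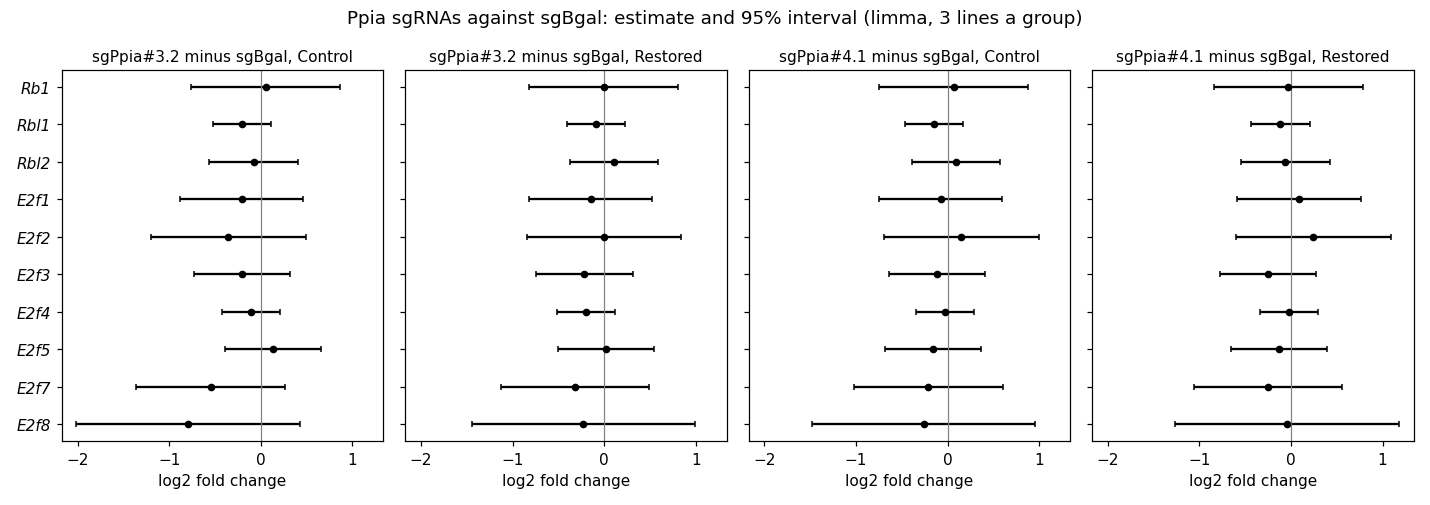
Difference of each Ppia sgRNA from sgBgal for the 10 genes in Control and Restored cells, as the limma log2 fold change (point) with its 95% interval (bar), 3 lines a group. All 40 intervals include 0, and the widest are those of E2f8, from -2.01 to 0.43 with sgPpia#3.2 in Control cells.

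The difference in response itself ranged over the members from -0.12 (E2f5) to 0.57 (E2f8) for sgPpia#3.2 and from -0.15 (Rbl2) to 0.22 (E2f8) for sgPpia#4.1. For Rb1 it was -0.06 (95% interval -1.21 to 1.09) and -0.09 (-1.24 to 1.05), and with the replicate block the intervals were -0.51 to 0.39 and -0.54 to 0.35. These comparisons share the sgBgal libraries.

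Over the 18 libraries the genes whose log2(TPM + 1) was most like that of a member were ranked by Pearson's r, as a description of libraries that share lines and states. For Rb1 they were Tnfrsf10b, a death receptor gene (r = 0.993), and Psrc1 (r = 0.987). For E2f1 they were Tcf19 (r = 0.974) and Mpv17l2 (0.948), for E2f2 Aldh1a7 (0.950) and Papss2 (0.927), and for E2f4 Rrp8 (0.943) and Vasp (0.940). E2f8 was most like Rad54b (0.935) and Cyp2c65 (0.932), E2f7 like Atad2 (0.903) and Gli3 (0.897), and E2f3 like Rbbp5 (0.947) and Crtc2 (0.944). Rbl2 was most like Map3k12 (0.936) and Zfp235 (0.933) and E2f5 like Ints12 (0.913) and Tefm (0.866). Rbl1 had the loosest match, with Zgrf1 (0.838) and Tef (0.827). Tnfrsf10b was at 16.3 TPM in its lowest library and 211 TPM in its highest.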

How the data were processed

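RNA was taken with an RNeasy kit and made into NEBNext Ultra II libraries. Per the labels the submitters' processing notes name bcl2fastq 2.17 and HISAT2, and the builds mm10 and GRCm39. Which of the builds or aligners gave the table, and whether counting used strand, is not given in the sources used here. The deposited values are TPM per gene for 18 samples, and each column sums to 1000000, so that absolute depth is lost. From these, log2(TPM + 1) was fitted with limma 3.58.1 in R 4.3.3 as 6 condition means over all 18 samples, for the 12828 of 25239 genes that reached 1 TPM in 3 or more samples. Calls needed an adjusted p (Benjamini-Hochberg) under 0.05 and a log2 fold change of at least 1, or the adjusted p alone for differences in response. The fit was tested on simulated data. Relative depth was read from the most frequent ratio of low values between libraries.

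The line pairs the samples, since each line gave 1 library to every condition. Deviations from the condition means correlated at 0.73 on average over the 45 pairs of libraries of the same line (lowest 0.58) and at -0.36 over the 90 pairs that differ in line and condition. The fit without a block is the main one, and the fit with the line as a block is printed beside it where it changes a call or a count of calls by over 1.5 times.

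The 10 genes and the lists were chosen with earlier results of these data known. In each list the text names up to 4 called genes with the largest change with sgBgal, and for each member the 2 genes with the highest r. Ccnd1, called with sgPpia#3.2, was named after its values were seen, as were Ccne1, Mcm10, Tfdp1 and E2f6. Promoters are RefSeq windows on GRCm38.p6, a build that may not be that of the table, and serve for sequence alone. Other alternatives were another pseudocount, rescaling, filters, moderated trend and samples left out.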

Additional observations from a re-analysis of the deposited data

How the results depend on the processing

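Without a block the p-values measure the spread between the 3 lines within a condition, pooled over the 6 conditions. That fit treats the libraries of a line as independent. With the replicate block they measure the spread that is left once the level of each line is removed. TPM values without counts give no depth behind a single value. The members called higher on restoration went from 1 to 0 without 1 line in each of the 3 comparisons (range 0 to 1, lost without 4711-1 and without 4716-11), to 0 with sgPpia#3.2 when the compared groups alone were fitted, and to 2 with sgPpia#3.2 with no minimum fold change, Rbl2 being the second. The members called lower went from 0 to 1 with sgBgal under the replicate block, the block without 4711-1 and the block with rescaling, and with sgPpia#4.1 to 1 under the latter pair and to a range of 0 to 1 without 1 line, the gene being E2f2 each time. Pairing by the line (replicate block) turned no other call of a member. The G1/S targets called lower with sgBgal went from 1 to 2 under the replicate block, median-of-ratios rescaling, compared groups only, no 4711-18 sgPpia#3.2 libraries, no minimum fold change, and the block with rescaling, and to a range of 0 to 1 without 1 line. The G2/M genes called lower with sgBgal ranged from 2 to 17 without 1 line. The sign turned for Rbl1 with sgBgal (-0.0044 after rescaling, with or without the block), E2f3 with sgPpia#4.1 (-0.053 after rescaling and -0.0087 to 0.19 without 1 line, the former without 4711-18, with or without the block), E2f5 with sgPpia#4.1 (-0.32 to 0.00038 without 1 line, the latter without 4711-1, with or without the block) and Ppia with sgPpia#3.2 (-0.13 to 0.13 without 1 line, the latter without 4711-1, with or without the block), and the cause was not tested. Of 450 recomputed log2 fold changes of members, leaving aside the alternative with no minimum fold change, 429 kept their sign and stayed called or not called. This count does not follow the adjusted p of members under the size limit. The fits with a block and a line left out, and with a block and rescaling, were chosen after seeing the data. All 0 counts of members called between sgRNAs stayed at 0 in every alternative run.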
